A study of Mus musculus with 12 samples.

Results

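The genes of the proteasome were described across 4 groups of cultured mouse regulatory T cells (Tregs). Members were taken by symbol, as every row whose name starts with Psma to Psmg and a number, and 50 of the 55228 gene symbols in the table met this rule. They comprised 19 core genes (Psma and Psmb), 21 cap genes (Psmc and Psmd) and 10 regulators (Psme, Psmf and Psmg). The 4 rows named as pseudogenes, none above 2.12 TPM in any library, were left out. The rule reads names only, so it also took Psmc3ip, a meiotic recombination factor that was named for binding Psmc3 and is no subunit, and counts of members called, moved one way or not overlapping that change without it are given both ways. It took Psme2b, a single-exon copy of Psme2, and assembly chaperones that leave the finished particle.

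All 12 libraries came from one pool of CD4+ cells of 16 NOD.Foxp3-GFP mice, a strain whose Tregs carry a green fluorescent reporter on the non-obese diabetic background. The ages of these NOD.Foxp3-GFP mice were not given in the sources used here. The study states an age range only for Treg donors of other NOD strains. The pool was divided into 3 parts, and Foxp3.GFP+CD25+ Tregs were sorted and activated separately from each. On day 2 every part was transduced with the empty vector (EV), 1G12t or 3A10t. 1G12t and 3A10t encode an orthogonal IL-2, named 1G12 or 3A10, joined to its orthogonal receptor chain through a CD25-derived linker, and all constructs carry the Thy1.1 marker by which transduced cells were purified on day 9. IL-2 was washed out on day 4 for EV no IL-2, 1G12t and 3A10t Tregs, which then grew for 5 days without it. EV+IL-2 Tregs stayed in soluble mouse IL-2 and were, in the study's account, part of the same EV-transduced culture as EV no IL-2 Tregs. The 3 libraries of a group are thus separate sorts and cultures of 1 pool. The p-values measure the spread between these cultures, not between animals. Libraries with the same replicate number share a sort, and p-values come from fits that leave this pairing out unless stated. Cell number and RNA per cell cannot be told apart in bulk libraries.

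The proteasome is the particle that degrades proteins tagged with ubiquitin. Its barrel-shaped core has outer rings of α subunits (Psma) that gate the entrance and inner rings of β subunits (Psmb), of which β1 (Psmb6), β2 (Psmb7) and β5 (Psmb5) cut. Lymphocytes and cells exposed to interferon replace these with β1i (Psmb9), β2i (Psmb10) and β5i (Psmb8), which makes the immunoproteasome and alters the peptides left for display on MHC class I. Caps made of an ATPase ring (Psmc), its partners and a lid (Psmd) bind, unfold and feed substrates. PA28α and PA28β (Psme1 and Psme2), PA28γ (Psme3) and PA200 (Psme4) are alternative activators, PI31 (Psmf1) was first described as an inhibitor of the core, and Psmg1 to Psmg4 help to build it.

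Short stretches of promoter are shown for the catalytic genes Psmb8, Psmb5 and Psmb6 and the activator gene Psme1, whose windows held a motif match. The standard and the immune subunits are known to respond to different factors. RefSeq promoter windows on GRCm38.p6, running from 250 bases before the start site to 50 after it, were matched for 42 of the 50 members. The following motifs were searched on both strands. TTCNNNGAA is the GAS site of cytokine-responsive promoters, GAAANNGAAA (or TTTCNNTTTC) is the core of the interferon-stimulated response element, and TGACNNNGC (or GCNNNGTCA) is the core of the antioxidant response element, which NRF1 and NRF2 bind. Each line gives a match, in capitals, with 10 bases on either side, read 5′ to 3′ on the strand of the gene.
Psmb8, TTCNNNGAA, chr17:34198088-34198116, plus strand: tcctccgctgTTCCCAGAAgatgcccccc
Psme1, TTTCNNTTTC, chr14:55578493-55578522, plus strand: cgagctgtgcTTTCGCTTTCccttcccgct
Psmb5, TGACNNNGC, chr14:54618024-54618052, minus strand: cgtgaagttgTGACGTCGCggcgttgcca
Psmb6, TGACNNNGC, chr11:70525338-70525366, plus strand: ctaaagagagTGACGGAGCgctttacgac

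The Psmb8 match begins 97 bases before the RefSeq start site and lies in an exon of 1 longer GENCODE transcript, Psmb8-201. The Psme1 match lies in the transcript, from its base 10. Those of Psmb5 and Psmb6 begin 47 and 9 bases before the start site and overlap no GENCODE exon. The GAS letters were present in 3 of the 42 members (Psmb8, Psmd2 and Psmg1), against 9.55% of all 27025 genes with a window. The interferon-response letters were present in 5 members (Psmb3, Psmd4, Psmd9, Psme1 and Psmg4) against 3.99% of all genes. The antioxidant-response letters were present in 6 (Psmb5, Psmb6, Psmc6, Psmd9, Psmd12 and Psme4) against 14%. Windows of Psmb9 and Psmb10 held none of the 3, and Psmb7 had no window. A match is only a run of letters and no measure of binding.

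Values are TPM, a measure of transcript abundance corrected for transcript length and library total, divided by a scaling factor per library, here called scaled TPM. Log2 fold changes are differences of mean log2(scaled TPM + 1). A gene was called at a Benjamini-Hochberg adjusted p under 0.05 in limma over all 15043 genes tested, those with a mean TPM of at least 1, which included 48 of the 50 members. Beside it stand counts at the study's own threshold, where the unadjusted p was under 0.01 and the fold change beyond 0.25 in log2 units. The study applied this cut to DESeq2 tests of counts and to comparisons with EV no IL-2. Here it is applied to limma tests of TPM and to all comparisons, so the counts cannot be set against the study's. TPM keep no depth, so the depth of the libraries is unknown. Genes above 0 TPM numbered 30393 to 43285 per library, and any part of this in the values was not tested. One library stood apart. 3A10t replicate 2 had the lowest scaling factor, 0.854 against 0.962 to 1.09 in the rest, and the median of the members in it lay 0.45 above the EV no IL-2 mean on the log2 scale, against 0.05 and 0.14 in 3A10t replicates 1 and 3. Most counts, and the medians and log2 fold changes named for members in 3A10t Tregs, are therefore also given without it. Calls, medians and fold changes of genes outside the members are given with all libraries only. They were not checked without replicate 2 or after a correction for length. Of 6 Treg markers, Foxp3 and Il2ra were high throughout, at least 369 and 309.7 scaled TPM, but they moved between groups. Il2ra, the gene of CD25, was called higher in EV+IL-2 than in EV no IL-2 Tregs (log2 fold change 0.76, adjusted p = 0.0012). No other Treg marker was called there. Ikzf2 (0.62), Cd3e (0.10) and Foxp3 (0.02) had positive log2 fold changes. Ctla4 (−0.21) and Cd4 (−0.27) had negative ones, with all EV+IL-2 values below those without IL-2. Set against EV+IL-2 Tregs, 3A10t Tregs had a log2 fold change of −0.88 for Il2ra (adjusted p = 0.00048). Foxp3 stood at 463, 369 and 391 in 3A10t Tregs, below all libraries of the other groups, by −0.28 against EV no IL-2 (adjusted p = 0.082) and −0.31 against EV+IL-2 Tregs (adjusted p = 0.019). The 3 B cell markers summed to 8.34 to 16.0 scaled TPM, the 2 CD8 T cell markers to 3.45 to 6.51, and the 5 myeloid markers to 442 to 764, of which Cst3 alone made up 439.6 to 763, highest in 3A10t replicate 2. Lyz2, Csf1r, S100a8 and S100a9 lay between 0 and 1.73. The part of these markers in any result was not tested.

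Proteasome genes were abundant in every group, and their sum took 0.995% to 1.19% of all TPM. Psmb8, β5i, was the most abundant member at a mean of 1093 scaled TPM over the 12 libraries. Psmb3, a non-catalytic β subunit, followed at 739.9, and Psmb6 at 622. Among cap genes Psmd4, the ubiquitin receptor of the base, was highest at 362. Psmc3ip was lowest at 29.6, followed by the assembly chaperone Psmd9 at 39.2. Apart from Psmc3ip and the chaperones, Psmd1 was the lowest cap gene at 83.6. Psme2 was the highest regulator at 464 and Psme4 the lowest at 7.93. Psma8 (the α subunit of the testis) and Psmb11 (β5t of the thymic cortex) had means of 0.342 and 0.814 and were not tested. Psmb11 ranged from 0.341 to 0.885 scaled TPM in EV no IL-2, from 0.121 to 0.256 in EV+IL-2, from 0.677 to 1.54 in 1G12t and from 1.07 to 1.87 in 3A10t Tregs.

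The first comparison asked what soluble IL-2 did to Tregs with the empty vector. EV+IL-2 Tregs had more RNA for 2 of the 3 immune catalytic subunits, Psmb8 and Psmb9, and also for the activator subunit Psme2 and for the lid subunit Psmd8. No member was called lower. These 4 called members made up 8.33% of the 48 tested, and 8.17% of all genes tested were called higher and 5.13% lower, so the number called was close to that among all genes. At the study's threshold 5 members were higher and 0 lower, against 8.99% and 6.10% of all genes. The fifth was Psmg3, an assembly chaperone, named here after its values were seen, at a log2 fold change of 0.32.

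Psmb8 stood at 837, 935 and 742 scaled TPM in EV no IL-2 and at 1666, 1706 and 1441 in EV+IL-2 Tregs. The groups were well apart, and its log2 fold change of 0.94 (SE 0.16, n = 3 per group, adjusted p = 0.0026) was the largest of any member. Its window held the GAS letters, as did those of Psmd2 and Psmg1, which were not called, while that of Psmb9 did not. Any part of these letters in the values was not tested. Psmb9 stood at 106, 119.7 and 94.2 without IL-2 and at 182, 179 and 166 with it, a log2 fold change of 0.72 (SE 0.094, adjusted p = 0.00051). Psmb9 (chr17:34181987-34187764, GRCm38) and Tap1 overlap on opposite strands, and the library kit does not mark strand, so reads from the overlap could belong to either. Psmb10, the remaining immune subunit, stood at 153, 155 and 131 and at 204, 203 and 171. All 3 values were above those without IL-2, yet its log2 fold change of 0.39 (SE 0.15) did not pass the test (adjusted p = 0.12). It passed in 3 of the 17 alternative analyses, over which its adjusted p ranged from 0.022 to 0.34.

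**Figure D1:**
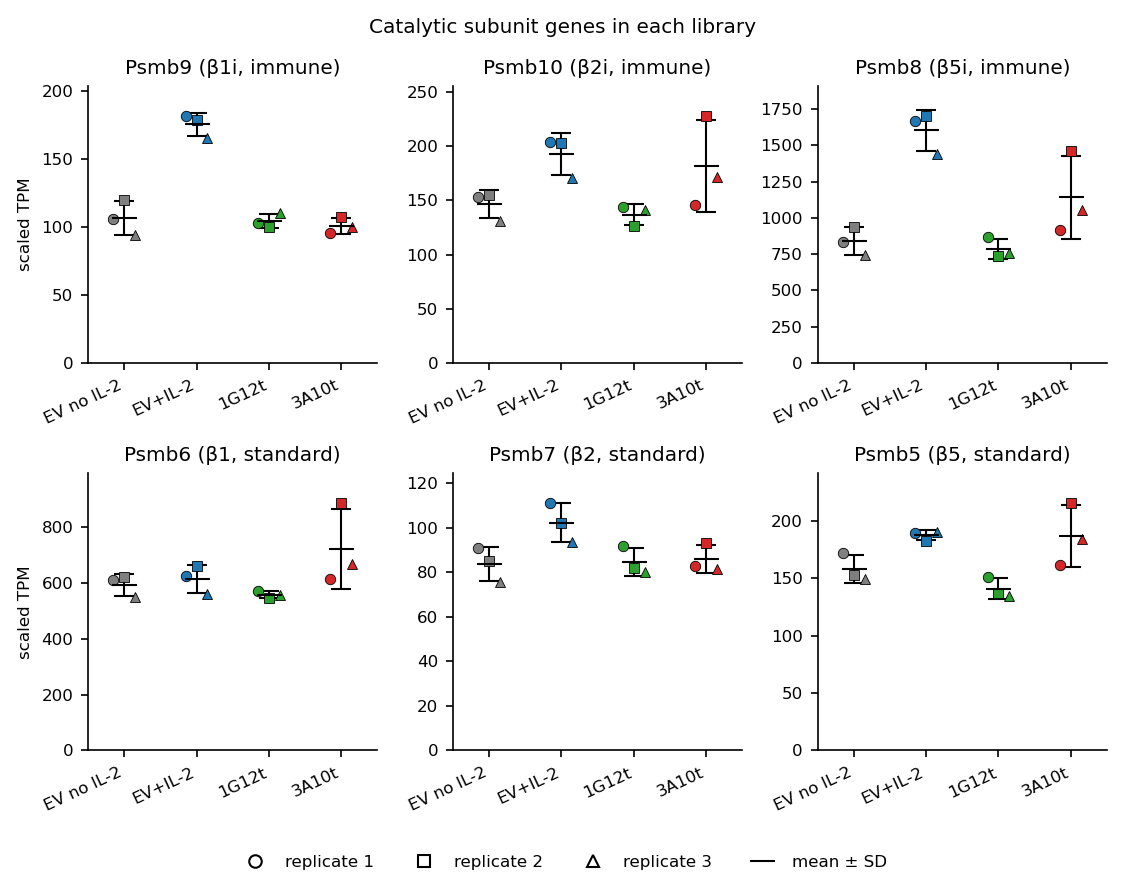
Scaled TPM of the 3 immune (top) and 3 standard (bottom) catalytic subunit genes in each of the 12 libraries, with the mean and SD of each group of 3. The EV+IL-2 libraries lie at 1441 to 1706 for Psmb8 and at 166 to 182 for Psmb9, above all 9 other libraries for Psmb9, whereas for Psmb8 the highest 3A10t library, replicate 2, reaches 1464.

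The standard partners did not pass the test. Psmb5, whose promoter window like that of Psmb6 held the antioxidant-response letters, stood at 172, 153 and 149 without IL-2 and at 189, 183 and 191 with it, a log2 fold change of 0.25 (adjusted p = 0.15). Psmb6 stood at 609.5, 619.8 and 549.8 and at 624, 661 and 562, with groups that overlapped and a log2 fold change of 0.05 that was negative under some scalings (−0.01 on TPM as deposited and −0.14 after quantile normalization). Psmb7 stood at 90.7, 85.2 and 75.4 and at 111, 102 and 93.5, a log2 fold change of 0.28 (adjusted p = 0.089). The 14 standard α and β subunits together had a median log2 fold change of 0.16. Of these 0 were called, with 4 higher and 0 lower at an unadjusted p under 0.05, where 13.9% and 12.4% of all genes were.

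Within a library, ratios between members do not depend on the scaling, though they may move with transcript length. The 3 immune genes made up 55.7%, 58.5% and 55.5% of the summed TPM of the 6 catalytic genes in EV no IL-2 Tregs and 69.0%, 68.8% and 67.7% in EV+IL-2 Tregs. The means were 56.6% ± 1.68 and 68.5% ± 0.662 (SD, n = 3), and the groups did not overlap. In 1G12t Tregs the share was 57.7%, 55.7% and 56.7%, and in 3A10t Tregs 57.3%, 60.1% and 58.7%, so that both ranges overlapped with EV no IL-2 and lay below EV+IL-2. No p is given for this share, since it is a sum over members.

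**Figure D2:**
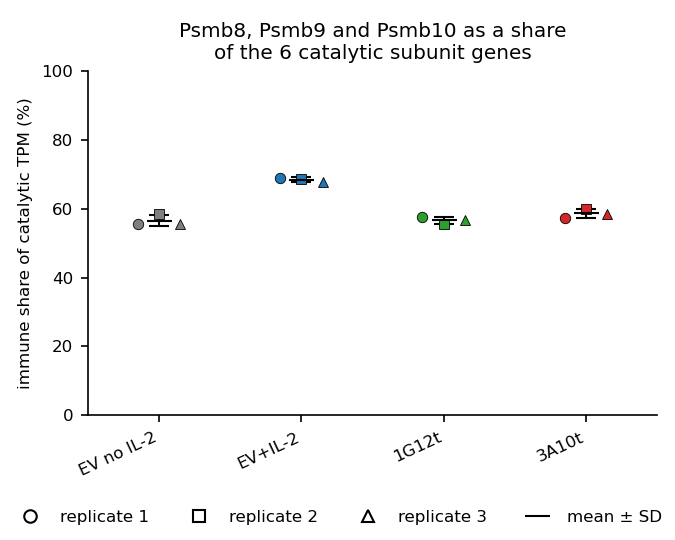
Share of the summed TPM of the 6 catalytic subunit genes held by Psmb8, Psmb9 and Psmb10, in percent, for each library, with the mean and SD of each group of 3. The 3 EV+IL-2 libraries lie between 67.7% and 69.0% and the other 9 between 55.5% and 60.1%.

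Pair by pair the picture was uneven. Psmb9 relative to Psmb6, the β1 pair, was 0.173, 0.193 and 0.171 with the empty vector alone, and soluble IL-2 took it to 0.291, 0.270 and 0.295. It was 0.179, 0.184 and 0.198 in 1G12t and 0.155, 0.121 and 0.149 in 3A10t Tregs. EV+IL-2 lay above and 3A10t below all libraries of the other groups. The longest transcript of Psmb9 has 2884 bases and that of Psmb6 966, and short genes stood above long ones in 3A10t replicates 2 and 3, as described with that group. After a correction for length the difference of the β1 pair between 3A10t and EV no IL-2 Tregs went from −0.34 to −0.11 on the log2 scale, and that between EV+IL-2 and EV no IL-2 Tregs from 0.67 to 0.72. Psmb8 relative to Psmb5, the β5 pair, was 4.87 to 6.13 in EV no IL-2, 7.56 to 9.34 in EV+IL-2, 5.36 to 5.73 in 1G12t and 5.67 to 6.79 in 3A10t Tregs, with EV+IL-2 alone apart from the rest. Psmb10 relative to Psmb7, the β2 pair, was 1.69 to 1.82, 1.82 to 1.99, 1.54 to 1.76 and 1.76 to 2.45 in the same order. Its difference between 3A10t and EV no IL-2 Tregs went from 0.25 to 0.03 with the same correction. The β2 pair differed least between EV no IL-2 and EV+IL-2, by 0.11 on the log2 scale against 0.67 for the β1 pair and 0.69 for the β5 pair.

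Among the activators, Psme2 stood at 436, 444 and 368 scaled TPM in EV no IL-2 and at 577, 593 and 539 in EV+IL-2 Tregs, and its log2 fold change was 0.46 (SE 0.11, adjusted p = 0.019). Its partner Psme1, the neighbouring gene on chromosome 14 and the activator whose window held the interferon-response letters, stood at 351, 345 and 331 and at 383, 397 and 368, a log2 fold change of 0.16 that did not pass (adjusted p = 0.45). Both sets of values were separate, but the gap was far wider for Psme2. Psme1 relative to Psme2 was accordingly 0.777 to 0.898 without IL-2 and 0.664 to 0.682 with it. Psme2b stood at 79.9 to 96.3 in EV+IL-2 and 89.4 to 102 in EV no IL-2 Tregs, and reads may be split between it and Psme2 in the authors' counting.

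Psme3 (121, 125 and 124 without IL-2 and 148, 143 and 129 with it) and Psme4 (7.01, 6.87 and 7.83, and 7.63, 6.79 and 9.10) did not pass the test. Psmf1 stood at 70.4, 69.5 and 63.9 and at 49.9, 58.4 and 51.2, so all 3 values with IL-2 were lower. Its log2 fold change was −0.35 (SE 0.12, adjusted p = 0.092), and its adjusted p was 0.049 once the replicates were blocked, within a range of 0.013 to 0.26 over the alternatives. Psmd8 stood at 247, 242 and 218 and at 292, 297 and 299.7, a log2 fold change of 0.33 (SE 0.096, adjusted p = 0.046) whose call was lost when any 1 of the 6 libraries compared was left out. The call of Psme2 was lost without EV+IL-2 replicate 1 or 2 or EV no IL-2 replicate 3, which left Psmb8 and Psmb9 as the 2 members called, and both of these passed in all 17 alternative analyses.

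Most of the other members lay slightly higher with IL-2. Of the 48 tested, 40 had a positive log2 fold change, against 6907 of all 15043 genes. The median was 0.12 (0.20 for core, 0.09 for cap and 0.15 for regulator genes), against −0.01 for all genes tested. After quantile normalization the medians were 0.05 for all members, 0.09 for core, 0.03 for cap and 0.10 for regulator genes, and with 1 library left out that of all members was 0.09 to 0.16. All 3 EV+IL-2 values were above all 3 EV no IL-2 values for 22 members (45.8%) and below for 2 (4.17%), against 19.6% and 20.0% of all genes. The 2 below were Psmf1 and Psmd5, a chaperone of the ATPase ring, which had a log2 fold change of −0.28 (adjusted p = 0.15). The 6 ATPases ranged from 0.03 to 0.15 and the 8 lid subunits from −0.07 to 0.33. Short protein-coding genes, with a longest transcript under 2000 bases, lay above longer ones in EV+IL-2 Tregs too. Their medians, averaged over the libraries, lay at 0.05 and −0.02 from the EV no IL-2 mean on the log2 scale. Those of short and longer members lay at 0.16 and 0.10.

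Genes that work around the proteasome, in lists chosen with earlier results known, moved as follows. Of 8 genes of antigen processing 4 were called higher and 1 lower, with a median log2 fold change of 0.28. The 4 were Tap2 (1.03) and Tap1 (0.76), the peptide transporter, Nlrc5 (0.95), the activator of MHC class I genes, and B2m (0.32), the light chain of MHC class I. Irf8, an interferon regulatory factor, fell by 0.83. Of 22 proteasome partners tested 3 were called higher and 0 lower, with a median of 0.03. They were the assembly factor Pomp (0.48), the lid subunit Sem1 (0.43) and the deubiquitinase Uchl5 (0.34). Of 5 ubiquitin genes 1 was called higher, Rps27a (0.38), which encodes ubiquitin fused to a ribosomal protein.

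**Figure D3:**
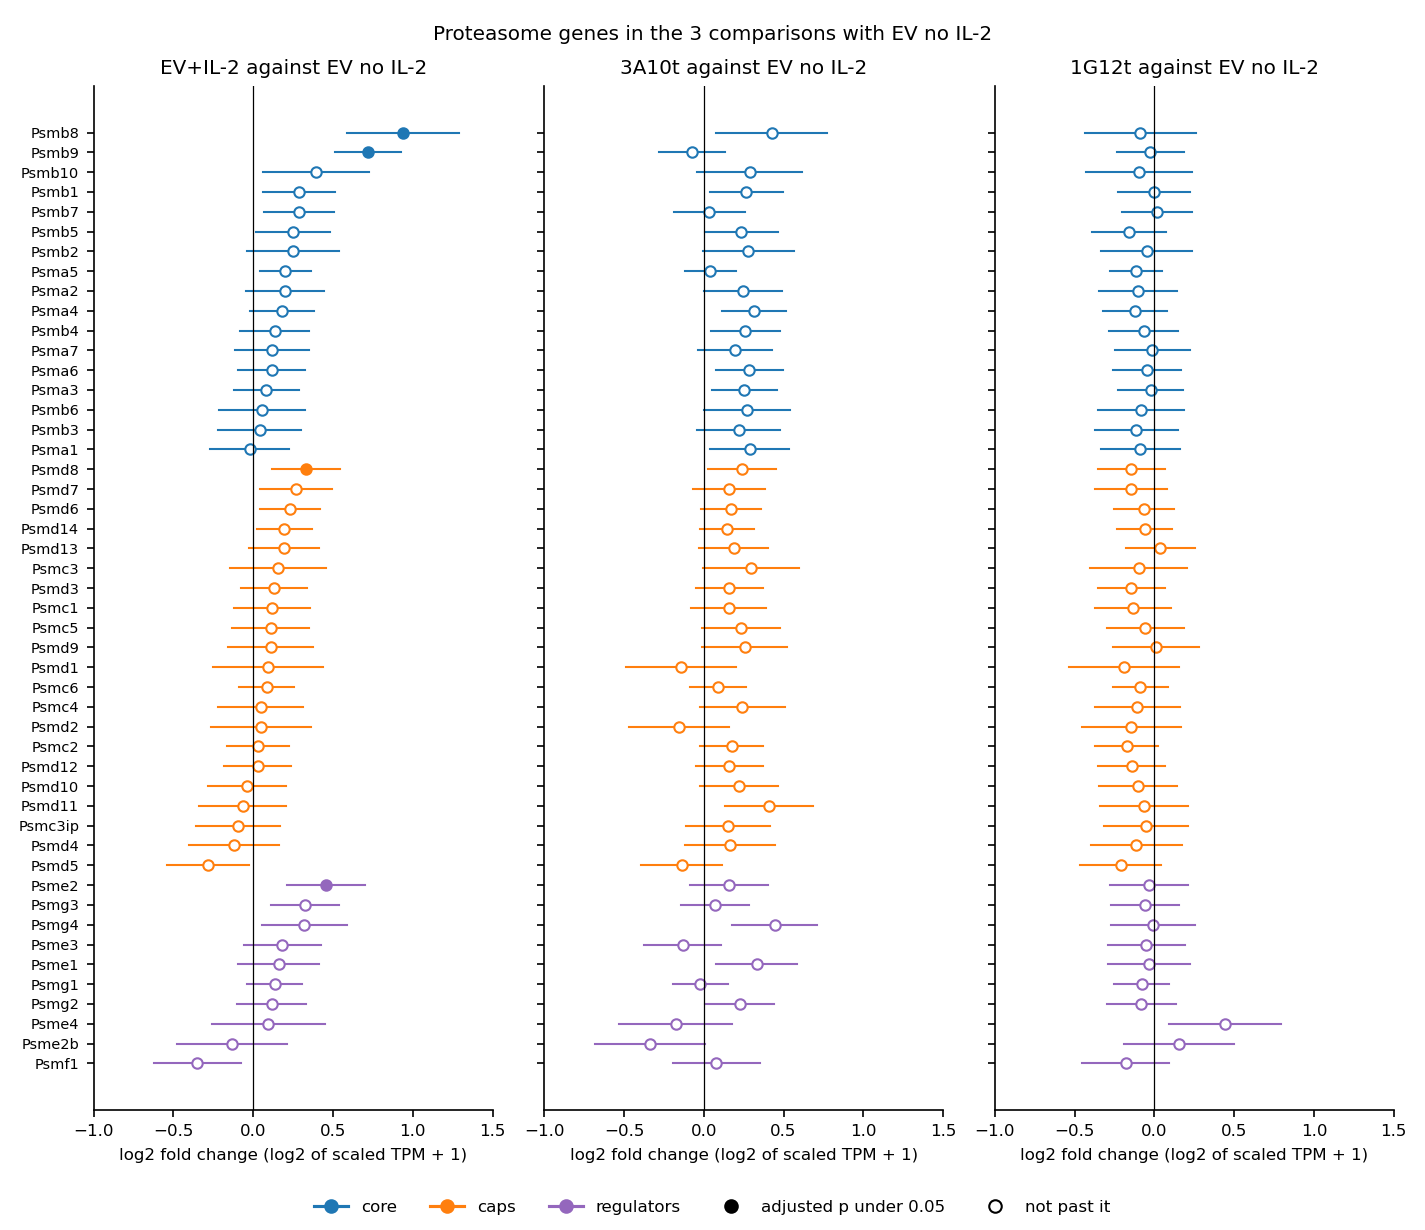
Log2 fold change of each of the 48 tested members with its 95% confidence interval, in EV+IL-2, 3A10t and 1G12t Tregs against EV no IL-2 Tregs. Rows are ordered by class and by the first comparison, and filled points have an adjusted p under 0.05, which holds for Psmb8, Psmb9, Psme2 and Psmd8 in the first panel and for 0 members in the other panels.

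The next comparison set Tregs with the 3A10 tether against those with the empty vector, both without soluble IL-2. The empty vector lacks the orthogonal receptor chain as well as the tethered IL-2, so their parts cannot be told apart here or for 1G12t. No member was called in 3A10t against EV no IL-2 Tregs by limma, where 0.452% of all genes were called higher and 1.60% lower. At an unadjusted p under 0.05, 13 members were higher and 0 lower, against 10.9% and 15.1% of all genes. At the study's threshold 3 were higher and 0 lower, against 2.83% and 6.67% of all genes, namely Psmg4, Psmd11 and Psma4. All 3 values were above EV no IL-2 for 14 members (29.2%) and below for 2 (4.17%), against 13.3% and 12.1% of all genes. Without 3A10t replicate 2, 5 members were higher and 1 lower at an unadjusted p under 0.05, against 6.09% and 9.81% of all genes, and 0 were higher or lower at the study's threshold, against 1.40% and 3.77%. The 2 remaining libraries were above EV no IL-2 for 13 members and below for 2, against 16.7% and 15.2% of all genes.

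The members again lay mostly above EV no IL-2, with 40 positive log2 fold changes (39 of 47 without Psmc3ip), against 7957 of all 15043 genes. The median was 0.19 (0.26 for core, 0.16 for cap and 0.07 for regulator genes), against 0.03 over all genes. This median rested largely on replicate 2. It was 0.09 without that library, where 37 were positive, 0.28 without replicate 1 and 0.24 without replicate 3. Without replicate 2 the class medians were 0.12 for core, 0.09 for cap and −0.01 for regulator genes, and that of the regulators was also negative on TPM as deposited (−0.07) and after the correction for length (−0.04). Without replicate 1, 16 members were called higher and 0 lower, against 7.91% and 15.3% of all genes in the same fit, among them Psma4, Psmb8, Psmb10, Psmd11, Psme1 and Psmg4, while leaving out any other library left 0 called.

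Transcript length moved with the same library. In 3A10t replicate 2 the 2356 protein-coding genes with a longest transcript under 2000 bases lay at a median of 0.40 above the EV no IL-2 mean on the log2 scale and the 8696 longer ones at −0.17. Short genes include 31 of the 48 members, among them Psmc3ip. The 31 lay at 0.46 there and the 17 longer members at 0.21. In replicates 1 and 3 the short members lay at 0.06 and 0.15, close to the 0.04 and 0.13 of short protein-coding genes, whose longer counterparts in replicate 3 lay at −0.06. After a correction for length the median of all members was 0.02 and that of all genes −0.04. On TPM as deposited these medians were 0.04 and −0.09.

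**Figure D4:**
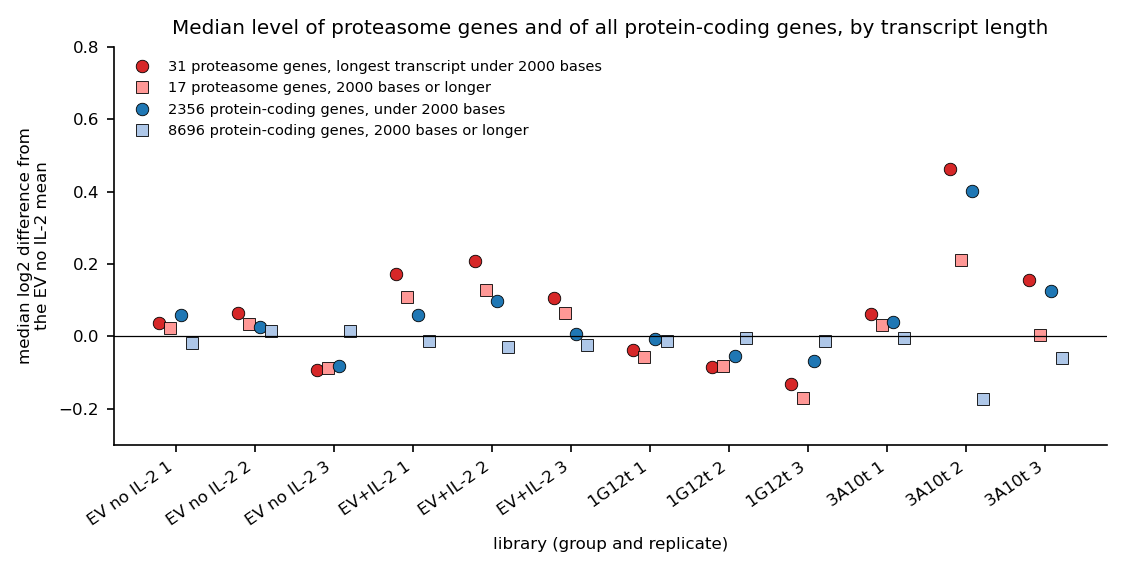
Median log2 difference from the EV no IL-2 mean in each library, for proteasome genes and all protein-coding genes tested, each split at a longest transcript of 2000 bases. In 3A10t replicate 2 the short genes lie at 0.46 (members) and 0.40 (all) and the long ones at 0.21 and −0.17, and in the other libraries the medians lie between −0.17 and 0.21.

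The 3 largest log2 fold changes in 3A10t Tregs were those of Psmg4 (0.44, SE 0.12, adjusted p = 0.076), Psmb8 (0.43, SE 0.16, adjusted p = 0.13) and Psmd11, a lid subunit (0.41, SE 0.12, adjusted p = 0.098). Without replicate 2 they were 0.33, 0.23 and 0.27, with adjusted p of 0.22, 0.38 and 0.26. Psmb8 stood at 914, 1464 and 1053 scaled TPM, which overlapped with EV no IL-2. Psmd11 stood at 301, 421 and 336 against 267, 279.7 and 244, all above. The smallest were Psme2b (−0.34), Psme4 (−0.18) and Psmd2, a scaffold subunit of the base (−0.16). Without 3A10t replicate 2 they were −0.45, −0.02 and 0.00.

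The 3 immune subunits of 3A10t Tregs gave log2 fold changes of both signs, and 0 of them passed the test. Psmb9 stood at 95.4, 107 and 99.6 scaled TPM, within the range of EV no IL-2, with a log2 fold change of −0.07 (95% confidence interval −0.28 to 0.13) that was 0.01 without EV no IL-2 replicate 2 and −0.12 without 3A10t replicate 2. Psmb10 stood at 146, 228 and 171, a log2 fold change of 0.29 (adjusted p = 0.24) that was 0.11 without replicate 2. Psme1 stood at 373, 539 and 397, above EV no IL-2 in all 3 libraries, with 0.33 (adjusted p = 0.12), and Psme2 at 417, 548 and 434, overlapping with it, with 0.16 (adjusted p = 0.37). Without replicate 2 these were 0.17 for Psme1 and 0.03 for Psme2.

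The standard subunits Psmb5 (161, 215 and 184 scaled TPM), Psmb6 (615, 886 and 668) and Psmb7 (82.9, 93.1 and 81.4) overlapped with EV no IL-2. Of the other regulators Psme3 (130.2, 95.9 and 114), Psme4 (7.70, 4.82 and 6.63) and Psmf1 (64.5, 85.4 and 67.1) did too. In each of these 6 genes replicate 2 was the extreme value, the highest for 4 of them and the lowest for Psme3 and Psme4. Of the 22 partners tested, 0 were called higher and 2 lower, where 0.452% and 1.60% of all genes were. The partners had a median log2 fold change of −0.25. At an unadjusted p under 0.05, 3 partners were higher and 9 lower, against 10.9% and 15.1% of all genes. The 2 called were Nploc4 (−0.81), a cofactor of the unfoldase VCP, and Ubqln4 (−0.66), a shuttle for ubiquitinated proteins. Of the genes of antigen processing 0 were called, with 1 higher and 1 lower at an unadjusted p under 0.05, and of the ubiquitin genes 0, with 1 higher and 2 lower, where 10.9% of all genes were higher and 15.1% lower.

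**Figure D5:**
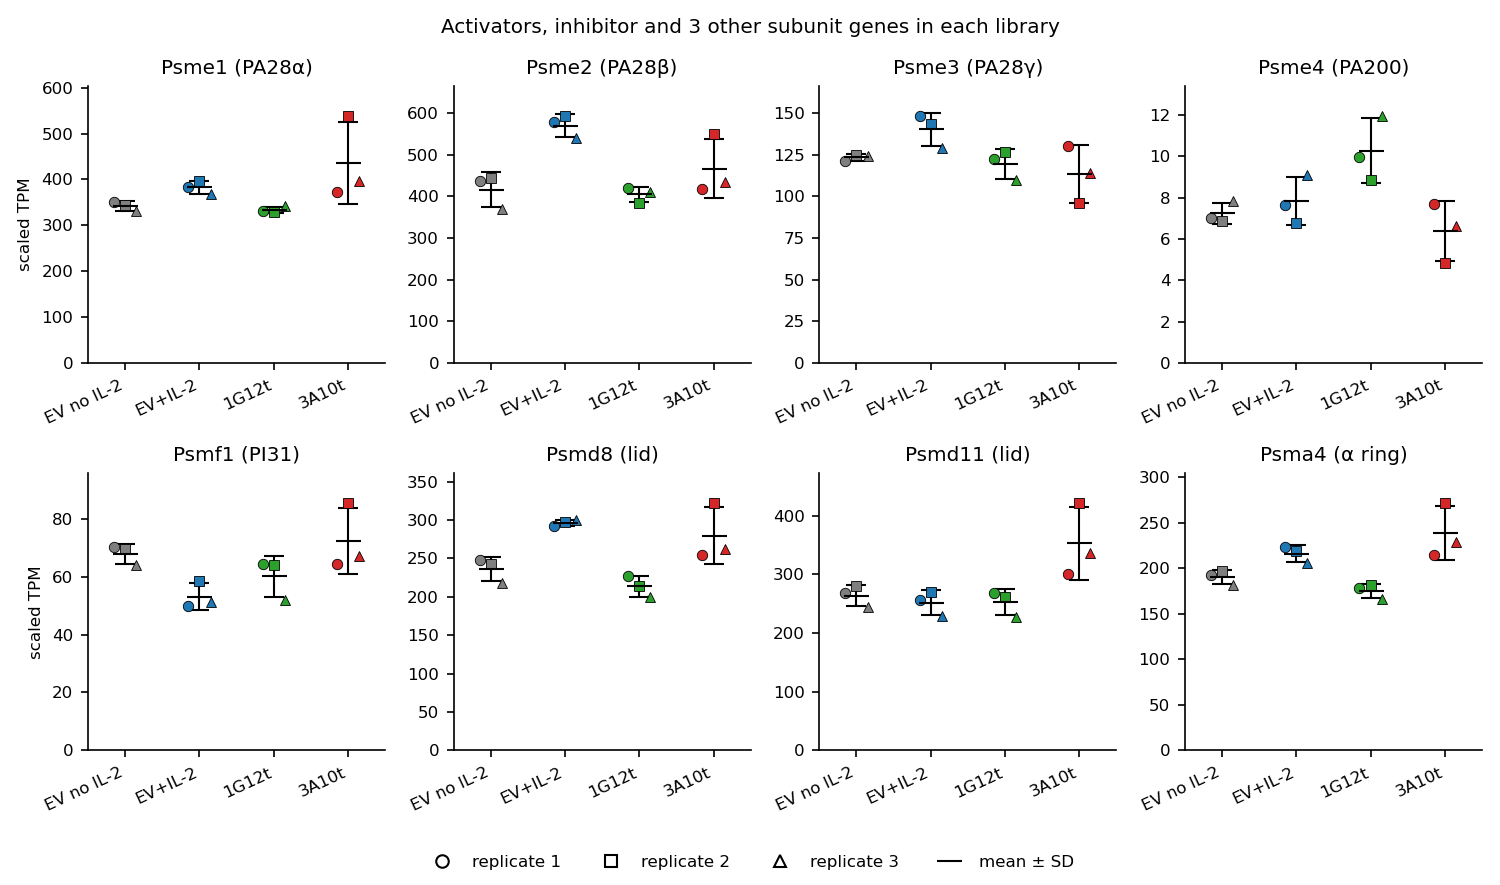
Scaled TPM of the 4 activator genes, the inhibitor gene Psmf1, the lid genes Psmd8 and Psmd11 and the α ring gene Psma4 in each library, with the mean and SD of each group of 3. The EV+IL-2 libraries lie at 539 to 593 for Psme2, a range that otherwise holds only 3A10t replicate 2 at 548, and at 49.9 to 58.4 for Psmf1, a range that otherwise holds only 1G12t replicate 3 at 52.0.

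The same question was asked of the 1G12 tether, and no member passed the test. In 1G12t against EV no IL-2 Tregs 0 members were called, where limma called 0.0133% of all genes higher and 0.00665% lower, and 1 member was higher and 0 lower at an unadjusted p under 0.05, against 5.32% and 1.72%. At the study's threshold 0 were higher or lower, against 1.13% and 0.226% of all genes. All 3 values were above for 1 member (2.08%) and below for 3 (6.25%), against 8.68% and 7.80% of all genes. The median log2 fold change was −0.08 (−0.09 for core, −0.11 for cap and −0.04 for regulator genes) against 0.00 over all genes. Of the 48, 43 were negative (42 of 47 without Psmc3ip), against 7774 of all 15043 genes. With 1 library left out the median was −0.12 to −0.06, and after quantile normalization it was −0.02, with 0.02 for core, −0.04 for cap and 0.03 for regulator genes, so that the sign for core and regulator genes depended on the scaling.

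The single member above in all 3 was Psme4, at 9.95, 8.86 and 11.96 scaled TPM against 7.01, 6.87 and 7.83, a log2 fold change of 0.44 (SE 0.16, adjusted p = 0.70). Psme2b (0.16) and Psmd13, a lid subunit (0.04), came next, and both were at or just below 0 when a single library was left out, 1G12t replicate 3 and EV no IL-2 replicate 3 in turn. The smallest were Psmd5 (−0.21), Psmd1, a scaffold of the base (−0.19), and Psmf1 (−0.18). Without 1G12t replicate 3 they were −0.11, −0.09 and −0.08. Psmb8 stood at 866, 735 and 761, Psmb9 at 103, 100.1 and 110.3 and Psmb10 at 144, 126 and 141, each overlapping with EV no IL-2. The 95% confidence interval of the difference was −0.44 to 0.26 for Psmb8, −0.23 to 0.18 for Psmb9 and −0.43 to 0.23 for Psmb10.

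Psmb5 (151, 137 and 135), Psmb6 (572, 545 and 558) and Psmb7 (91.8, 81.8 and 80.2) also overlapped with EV no IL-2, as did Psme1 (331, 329.6 and 342), Psme2 (420.2, 385 and 409.9), Psme3 (122, 126 and 109) and Psmf1 (64.3, 64.1 and 52.0). Of the partners, the genes of antigen processing and the ubiquitin genes 0 were called. At an unadjusted p under 0.05 only 1 of these was higher, a gene of antigen processing, and 0 were lower.

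The tethers were then set against each other. Between 3A10t and 1G12t Tregs 1 member was called higher and 0 lower, against 1.30% and 2.96% of all genes. At the study's threshold 14 were higher (29.2%) and 2 lower (4.17%), against 5.29% and 7.06% of all genes, and without 3A10t replicate 2 these were 4 and 2, against 2.49% and 4.49%. The member called was Psma4, an α ring subunit, at 214, 271 and 229 scaled TPM in 3A10t and 178, 181 and 166 in 1G12t Tregs (log2 fold change 0.44, SE 0.090, adjusted p = 0.036), and its log2 fold change was 0.33 without 3A10t replicate 2. With replicates blocked by their number 5 members were called, Psma4, Psmc2, Psmd8 and Psmd11 higher and Psme4 lower. The count depended strongly on single libraries. It was 31 without 3A10t replicate 1, with 30 higher and 1 lower against 11.7% and 15.9% of all genes in the same fit, and 0 when any one of the other 5 libraries compared was left out.

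All 3 values of 3A10t were above all 3 of 1G12t for 33 members (32 without Psmc3ip), 68.8% of those tested, and below for 1, against 13.7% and 12.5% of all genes. The median log2 fold change was 0.29 (0.33 for core, 0.29 for cap and 0.16 for regulator genes) against −0.02 over all genes. Without 3A10t replicate 2 it was 0.18 (0.19 for core, 0.19 for cap and 0.05 for regulator genes), and the remaining libraries were above for 31 members and below for 3, against 16.7% and 16.3% of all genes. It was 0.10 both after the correction for length and on TPM as deposited, where that of regulator genes was 0.00 and −0.03. The largest were Psmb8 (0.51, adjusted p = 0.074), Psmd11 (0.47, adjusted p = 0.055) and Psmg4 (0.45, adjusted p = 0.055). Without 3A10t replicate 2 they were 0.31, 0.33 and 0.33, and Psmb8 was 0.22 after quantile normalization. The smallest were Psme4 (−0.62, adjusted p = 0.053), Psme2b (−0.49, adjusted p = 0.079) and Psme3 (−0.08), which were −0.47, −0.62 and 0.02 without 3A10t replicate 2. Psme4, the member below in all 3, has the longest transcript among the members, 6491 bases, and stood lowest in 3A10t replicate 2. Over the 17 alternatives, which include the correction for length, its log2 fold change was −0.79 to −0.43, and it was called in 4 of them. Any part of transcript length in this difference was not tested. Around the proteasome, Uchl5 (0.46) was called higher and Nploc4 (−0.88), Ubqln4 (−0.68) and Uba6 (−0.61), a ubiquitin-activating enzyme, lower. Of the genes of antigen processing 0 were called, with 1 higher and 0 lower at an unadjusted p under 0.05, where 14.0% and 15.7% of all genes were.

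Tethered 3A10 and soluble IL-2 were compared directly as well. In 3A10t against EV+IL-2 Tregs 2 members were called lower, Psmb9 and Psmb8, and 2 higher, Psmd11 and Psmf1, where 13.0% and 10.3% of all genes were called. The study's threshold also gave 2 lower and 2 higher, against 12.5% and 9.63%. Psmb9 was lower in every 3A10t library, with a log2 fold change of −0.79 (SE 0.094, adjusted p = 0.00028). Psmb8 was lower by 0.51 on the log2 scale (log2 fold change −0.51, SE 0.16, adjusted p = 0.039), although 3A10t replicate 2 reached 1464 and EV+IL-2 replicate 3 only 1441. Psmd11 was at 301 to 421 in 3A10t and 229 to 270.2 in EV+IL-2 Tregs (0.47, SE 0.12, adjusted p = 0.020), and Psmf1 at 64.5 to 85.4 and 49.9 to 58.4 (0.43, SE 0.12, adjusted p = 0.030).

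The call of Psmb9 held when any 1 library was left out. Those of Psmd11 and Psmf1 were lost without 3A10t replicate 2 or EV+IL-2 replicate 1 or 3, and that of Psmb8 without 3A10t replicate 1 or 3 or EV+IL-2 replicate 1 or 2. The count of calls was 1 without EV+IL-2 replicate 1, 2 without EV+IL-2 replicate 3 and 8 without 3A10t replicate 1, of which 5 were higher and 3 lower against 13.8% and 19.9% of all genes in that fit. Without 3A10t replicate 2 it was 4 lower and 0 higher, against 10.4% and 6.88%, namely Psmb9 (−0.85), Psmb8 (−0.71), Psme2 (−0.43) and Psmg3 (−0.33), and Psmd11 and Psmf1 were at 0.33 and 0.30. With all libraries Psme2 was lower by 0.30 and did not pass (log2 fold change −0.30, adjusted p = 0.074). Psme2 passed in 5 of the 17 alternative limma analyses, over which its adjusted p ranged from 0.00063 to 0.21. The split of calls moved with the scaling, from 2 higher and 2 lower to 3 and 6 on TPM as deposited, 6 and 4 after quantile normalization and 2 and 12 after the correction for length. The median log2 fold change of the members was 0.04 (0.05 for core, 0.12 for cap and −0.18 for regulator genes) against 0.00 over all genes. The sign of these medians rested on single libraries and on the scaling. Without 3A10t replicate 2 they were −0.05, −0.08, −0.01 and −0.14, after the correction for length −0.09, −0.10, −0.01 and −0.27, and with 1 library left out that of all members was −0.05 to 0.13.

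In the surrounding lists, 5 genes of antigen processing were called lower and 1 higher in this comparison. Nlrc5 (−1.16), Tap2 (−1.14), Tap1 (−0.96), Erap1 (−0.83), which trims peptides, and Irf1 (−0.30) were lower and Irf8 (1.23) was higher. Of the partners 7 were called lower and 0 higher, from Nploc4 (−0.96) to Sem1 (−0.31). Of the ubiquitin genes Uba6 (−0.60) was called lower. This comparison and that of EV+IL-2 with EV no IL-2 share the EV+IL-2 libraries, so the values of Psmb8, Psmb9 and the genes around them in both are not independent of each other.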

How the data were processed

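RNA-seq of 12 libraries was used, with groups and replicate numbers read from the labels of the samples. Each group, EV without and with IL-2, 1G12t and 3A10t, had 3. The deposited table holds TPM, 1 column per library. The authors made full-length cDNA from oligo-dT primed RNA, used Cutadapt 1.18 for trimming, STAR 2.5.3 for alignment to mm10 and RSEM 1.3.0 with a GENCODE annotation for the TPM. They tested counts with DESeq2, and those counts were not used here. Since TPM carry no depth, counting error is unknown. Standard errors come from a residual variance per gene that limma pooled over all 12 libraries and moderated. They are therefore not the spread of the 3 libraries of a group alone. The median SD of the members on the log2 scale was 0.21 among 3A10t libraries and 0.083 to 0.093 in the remaining groups. The wider spread of 3A10t libraries thus enters the errors of every comparison, including those without 3A10t Tregs.

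TPM were divided by median-of-ratios factors per library and tested with limma 3.58.1 (lmFit and eBayes with a trend, R 4.3.3) on log2(scaled TPM + 1), where 1 is the pseudocount, all 12 libraries in the fit, 1 mean per group and no replicate block. Genes averaging 1 TPM or more entered, 15043 in all, and p-values adjusted over all of them by Benjamini-Hochberg. The fit was also run on simulated data, and the outcome of that run is not given here. Gene types, positions and longest transcripts came from GENCODE M21, in which all 50 members were found, and figures were drawn with matplotlib 3.10.9. Sequences are RefSeq's, on GRCm38.p6.

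The members, the classes, the lists of other genes and the tests were chosen with earlier results of these data known. From the lists of other genes, 2 genes are not reported here, and counts and medians are without them. Values in every library are given for the catalytic subunits, the activators and Psmf1, and fold changes for all members called or, where fewer than 3 were, for the 3 largest and 3 smallest. Alternatives were other pseudocounts (0.1 and 5), filters (none, or 5 TPM on average), quantile normalization or no scaling of the deposited TPM, a fit to the 6 libraries of a comparison alone, eBayes without a trend, a lowess correction for transcript length (span 0.3), the replicate number as a block, alone and with the length correction, and each library left out in turn. The labels say that a replicate number marks a shared sort and activation, so the numbers pair the libraries, although the deviations from group means of the 18 same-number pairs correlated by only 0.04 on average (−0.11 to 0.15, 3 of them over 0.1) and those of 36 other pairs by −0.02.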

Additional observations from a re-analysis of the deposited data

How the results depend on the processing

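TPM keep no depth, so how far it limits these values is not known. Precision rests on 3 libraries a group and on a variance pooled over all groups, except in the fits to only the 6 libraries compared. Over the 17 alternatives the 4 members called in EV+IL-2 against EV no IL-2 Tregs were 2 with no filter on low TPM, 9 with only the 6 libraries compared, 9 after the length correction, 11 with that correction and the replicate block, and 2 to 3 with 1 library left out. The 0 called in 3A10t against EV no IL-2 Tregs stayed at 0 except with 1 library left out, at 0 to 16, and in 1G12t Tregs the count was 0 under all 17. The 1 called between 3A10t and 1G12t Tregs was 3 on TPM as deposited, 7 at a mean TPM of at least 5, 5 with the replicate block, 0 without a trend, with no filter or with only the 6 libraries compared, and 0 to 31 with 1 library left out. The 4 called in 3A10t against EV+IL-2 Tregs were 9 on TPM as deposited, 10 after quantile normalization, 14 after the length correction, 15 with the block as well, 7 with no filter, 1 with only the 6 libraries compared and 1 to 8 with 1 library left out. The cause of these moves was not tested. The replicate block alone gave 5, 0, 0, 5 and 4 calls in the 5 comparisons in the order above, and beyond the calls of Psmf1, Psmc2, Psmd8, Psmd11 and Psme4 given with the results it changed no call of a member named there.

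Of the 44 log2 fold changes of named members, 37 kept their sign under every alternative. In EV+IL-2 against EV no IL-2 Tregs Psmb6 was −0.01 on TPM as deposited, −0.14 after quantile normalization and −0.005 to 0.12 with 1 library left out. In 1G12t against EV no IL-2 Tregs Psmb9 was 0.019 and 0.054 under the same scalings and −0.11 to 0.059 with 1 library left out, Psme2b was −0.0002 to 0.31 and Psmd13 −0.0089 to 0.082. In 3A10t against EV no IL-2 Tregs Psmb9 was −0.16 to 0.013 and Psmd2 −0.30 to 0.004, and against 1G12t Tregs Psme3 was −0.18 to 0.020. On TPM as deposited the median of all genes fell from 0.03 to −0.09 in 3A10t against EV no IL-2 Tregs and from −0.02 to −0.18 against 1G12t Tregs.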
